A study of Homo sapiens with 24 samples.

Results

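The E2F transcription factors E2F1 to E2F8 and the pocket proteins RB1 and RBL1 were examined after knockdown of IGF2BP1 in 4 human cancer cell lines. Members were chosen by name, as the rows of each deposited table whose gene symbol is 1 of these 10, out of 58174 genes listed, and all 10 were found in all 4 tables. Total RNA depleted of ribosomal RNA was sequenced from A549 (lung cancer), ES2 (ovarian cancer), MV3 (melanoma) and PANC1 (pancreatic cancer) cells that had received either control siRNA (siC) or a pool of siRNAs against IGF2BP1 (siI1), an RNA-binding protein of the embryo that many tumors express again. Cells were harvested 72 h after transfection, and PANC1 after 96 h. Each of the 8 groups had 3 biological replicates, 24 libraries in all, and each line is 1 established line kept in the same medium. Levels are read counts per gene length and library size (FPKM), so that levels of different genes can be set side by side. The comparison asks how the factors that open the S phase program respond when IGF2BP1 is lowered.

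E2F proteins bind promoters of genes needed to enter S phase and copy DNA. E2F1, E2F2 and E2F3 activate these genes when they are free of pocket proteins, whereas E2F4 and E2F5 mostly repress them together with the pocket proteins RBL1 (p107) and RBL2 (p130), and RB1 holds the activators in check until cyclin-dependent kinases phosphorylate it. E2F6 works without pocket proteins, in a Polycomb complex, and the atypical members E2F7 and E2F8 repress without a dimer partner and close the program again. Several of these genes are themselves E2F targets in cycling cells.

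Windows upstream of the members' starts were searched for words of the E2F element, since several members are known targets of the family; the stretches that held one are shown. RefSeq promoter sequence (GRCh38.p14) matched 8 of the 10 genes in 9 windows, since E2F3 had 2 starts; the others were E2F5 and E2F8. In the 250 bases before each start, TTTCCCGC, TTTCGCGC, TTTGCCGC or TTTGGCGC, on either strand, was found for E2F1, E2F2, RBL1 and 1 of the 2 starts of E2F3, and not for E2F4, E2F6, E2F7 or RB1. Of 35116 such windows over all genes, 979 (2.79%) held at least 1 of these words. The matching stretches are printed 5′ to 3′ on the strand of the gene, with the matched words in capitals; in E2F1 the first word, and in E2F3 the only one, is read on the opposite strand. E2F1 held 2 words, beginning 33 and 20 bases before the start, and RBL1 held 2, beginning at 26 and 16 bases. The TTTGAA element of late cell cycle genes, present in 4677 windows (13.3%) on either strand, was found only for E2F3, 65 bases before the same start. A match is a description of the letters and not a measured binding site.
E2F1, chr20:33686388-33686428, minus strand: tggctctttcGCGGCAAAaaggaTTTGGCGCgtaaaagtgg
E2F2, chr1:23531258-23531285, minus strand: cggcacgacgTTTGGCGCtaaaaaaaaa
E2F3, chr6:20401816-20401843, plus strand: tgaaaagccgGCGGGAAAtccgagtttc
RBL1, chr20:37095998-37096033, minus strand: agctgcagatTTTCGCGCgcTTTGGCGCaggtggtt

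MV3 libraries were the deepest, with 15572492 to 20082702 gene reads each, and A549 libraries the shallowest, with 3105215 to 4553326. PANC1 had 6532175 to 8472851 and ES2 had 6421764 to 8419467. The knockdown was seen in every line: IGF2BP1 (ENSG00000159217, hg38 chromosome 17, 48997385 to 49056145) was left at 24.9% of its siC mean in PANC1, 31.4% in MV3, 31.7% in ES2 and 39.4% in A549, with limma adjusted p of at most 0.000319. The PANC1 siI1 libraries stood apart in their make-up, as RN7SL2, a small cytoplasmic RNA, took 17.7% to 20.9% of their reads against 8.74% to 12.8% in siC, and its part in the PANC1 results was not tested. Of the summed FPKM, RN7SL2 made up 62.0% to 64.6% in PANC1 siI1 and 50.1% to 56.2% in siC. An alternative scaling below holds this sum equal between libraries. Markers fitted the labels in part. A549 expressed KRT7, KRT8, KRT18 and AKR1B10 but lacked NKX2-1 and SFTPB, and PANC1 expressed KRT8, KRT18 and KRT19 with GATA6 and CFTR at most 0.149 and 0.0326 FPKM. In MV3, SOX10, TYR and S100B were listed at 0 and MITF reached at most 0.337 FPKM, and in ES2, MUC16 was listed at 0, PAX8 reached at most 0.262 FPKM, and CDH5, an endothelial gene, lay between 8.32 and 16.1 FPKM. The blood marker PTPRC was at most 0.0332 FPKM in any line.

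In siC cells every member was expressed in every line, from 1.61 ± 0.0794 FPKM for E2F8 in A549 to 32.8 ± 2.15 FPKM for E2F1 in MV3 (SD, n = 3). E2F1 and E2F4 were the most abundant E2F mRNAs in each line, with E2F4 first in A549 and ES2 and E2F1 first in MV3 and PANC1, although the libraries of both genes overlapped in ES2. E2F2 and E2F8 were the least abundant in each line. Because each line's table was scaled on its own, levels of 1 gene in different lines are given as a description, without a test. The level of E2F7 varied most between lines, from 3.93 ± 0.316 FPKM in PANC1 and 4.44 ± 0.37 in A549 to 11.4 ± 0.706 in MV3 and 16.2 ± 0.768 in ES2, a 4.13-fold span of means, and only its A549 and PANC1 libraries overlapped. E2F6 varied least, with means between 6.79 and 8.24 FPKM, a 1.21-fold span. RB1 was highest in A549 (13.8 ± 0.583 FPKM) and lowest in ES2 (6.91 ± 0.731), whereas RBL1 was highest in MV3 (18.1 ± 0.935) and lowest in PANC1 (6.19 ± 0.44). With libraries rescaled to the same sum of all FPKM, RBL1 was instead highest in A549 (19.2 FPKM, against 17.8 in MV3). In MV3 and ES2 all siC libraries of RBL1 exceeded those of RB1, in PANC1 all siC libraries of RB1 exceeded those of RBL1, and in A549 they overlapped.

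**Figure D1:**
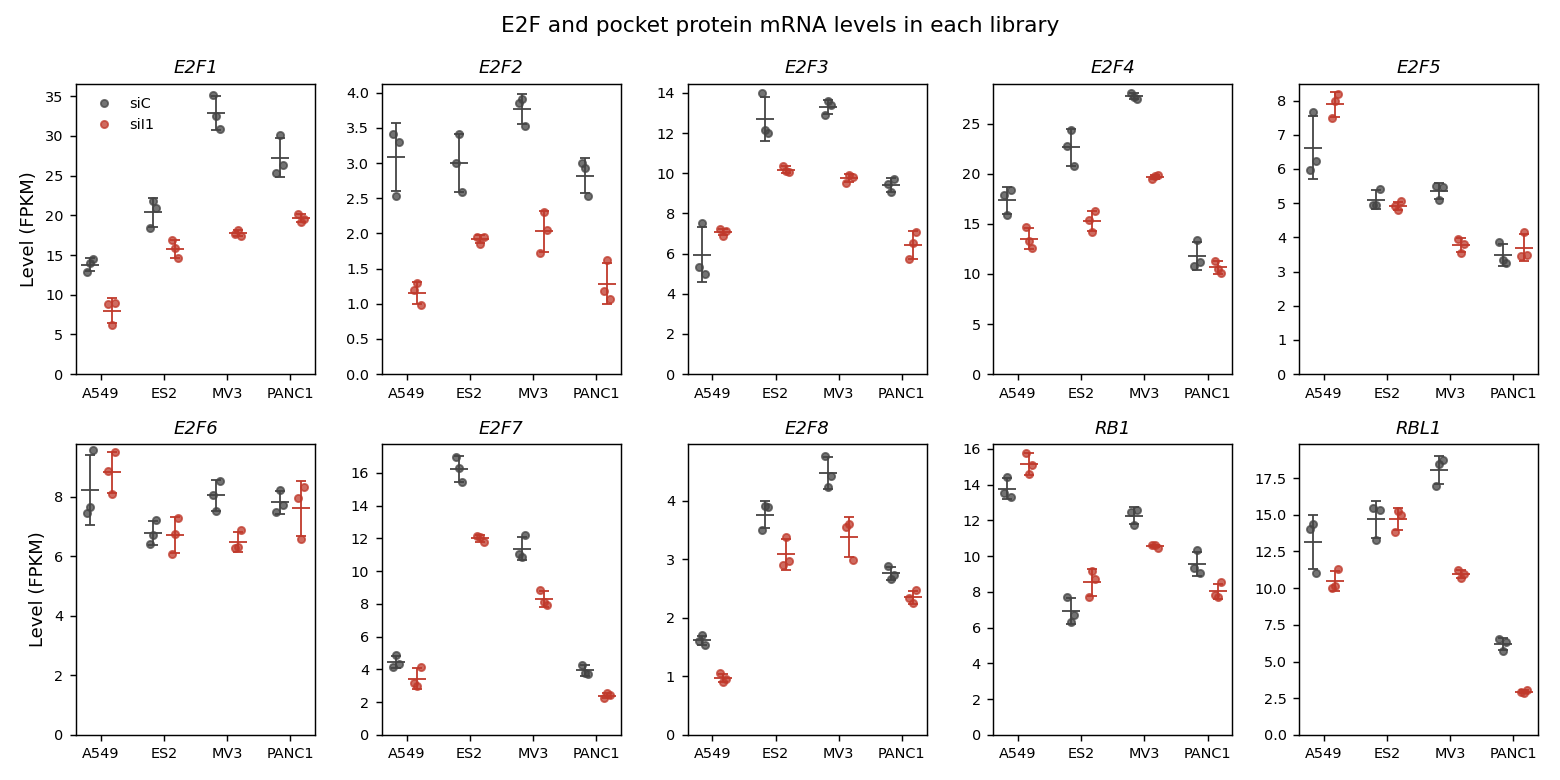
Level of each member (FPKM, linear axis from 0) in the siC (grey) and siI1 (red) libraries of the 4 lines; points are libraries, horizontal bars group means and error bars SD (n = 3). E2F1 and E2F2 show no overlap between siC and siI1 in any line, and RBL1 falls in MV3 and PANC1 while its ES2 libraries overlap.

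After knockdown, members fell in every line and 0 rose at an adjusted p under 0.05 in the limma fit over all genes. At an unadjusted p under 0.05, 1 was higher (RB1 in ES2), and limma voom on the recovered reads also called 1 higher, in the same line. In A549, 3 of the 10 members were lower (E2F1, E2F2 and E2F4), where 7.83% of the 18411 genes tested were lower and 5.93% higher. In ES2, 5 were lower (E2F1, E2F2, E2F3, E2F4 and E2F7), against 13.0% of 16920 genes lower and 10.5% higher. In MV3, all 10 were lower, against 19.5% of 16380 genes lower and 16.3% higher. In PANC1, 5 were lower (E2F1, E2F2, E2F3, E2F7 and RBL1), against 13.4% of 15846 genes lower and 11.3% higher. The median log2 fold change of the members was -0.45 in MV3, -0.35 in PANC1, -0.32 in A549 and -0.28 in ES2, beside medians of 0.01, -0.04, -0.01 and -0.02 over all genes tested. All 10 members passed the filter on low values in each line, and each was covered by at least 14 reads in every library. The libraries are bulk samples, so that fewer cycling cells and less mRNA per cell cannot be told apart. In GENCODE 44, exons of E2F5, E2F8 and RBL1 overlap genes on the opposite strand, and E2F3, E2F4 and E2F6 have 2, 1 and 4 pseudogenes. The library kit keeps strand, but whether the counting used it, or shared reads with the copies, is not given in the sources used here.

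The number of member calls depended on the line's replicates and scaling. In A549 it was 0 without siC replicate 1, 1 without siC replicate 3, and 2 without any other library. In ES2 it was 2 without siI1 replicate 2 or 3, 3 without siC replicate 2 or siI1 replicate 1, and 4 without siC replicate 1 or 3. Rescaling to the same sum of FPKM moved the median of all genes in PANC1 to -0.68, with 98.9% of called genes lower instead of 54.3%, and called all 10 members there. Of the 16238 genes then tested in PANC1, 8870 were lower and 96 higher. Rescaling to the same sum of protein-coding FPKM, an alternative chosen after the data were seen, moved the median to 0.11 in ES2 and 0.13 in MV3. The share of lower genes among those called was then 30.7% in ES2 (55.4% as deposited, and 44.4% with the same sum of all FPKM) and 30.0% in MV3 (54.5% as deposited), while 3 members were lower and 1 higher in ES2 and 7 were lower and none higher in MV3. Of the 16936 genes then tested in ES2, 1295 were lower and 2924 higher. Of 16405 in MV3, 1894 were lower and 4409 higher.

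**Figure D2:**
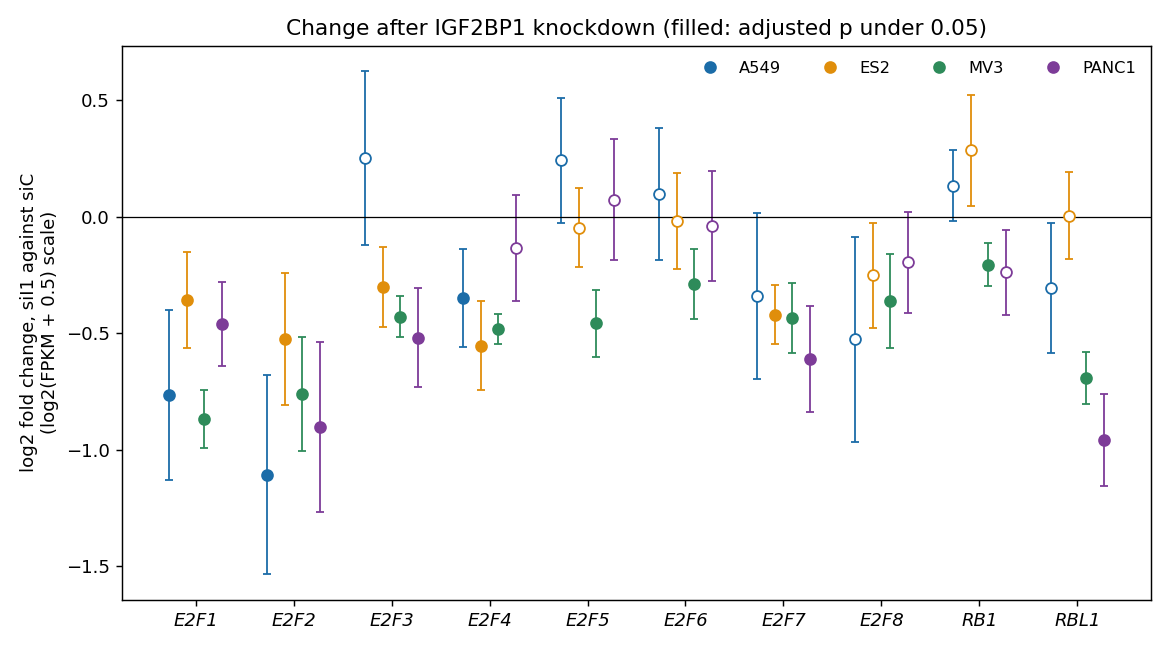
log2 fold change of each member, siI1 against siC, on the log2(FPKM + 0.5) scale, with its 95% confidence interval from limma; each point is 1 line (n = 3 libraries per group) and filled points have an adjusted p under 0.05. E2F1 and E2F2 are filled and below 0 in all 4 lines, E2F5 and E2F6 are filled in MV3 alone, and no filled point lies above 0.

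Among the activators, E2F1 (ENSG00000101412, chromosome 20, 33675477 to 33686385) was lower in all 4 lines. In A549 its siC libraries had 12.8, 14.1 and 14.5 FPKM and its siI1 libraries 8.82, 6.15 and 9.02. In ES2 they had 18.4, 21.9 and 20.9 FPKM in siC and 16.9, 15.8 and 14.6 in siI1. In MV3 they had 35.1, 32.5 and 30.9 FPKM in siC and 17.7, 18.1 and 17.4 in siI1. The siI1 libraries were thus lower without overlap in these lines, with the widest gap in MV3 and the narrowest in ES2. In PANC1 the values were 25.4, 30.1 and 26.4 FPKM in siC and 20.2, 19.2 and 19.5 in siI1, again without overlap. The log2 fold changes were -0.87 ± 0.05 (SE) in MV3, -0.77 ± 0.15 in A549, -0.46 ± 0.07 in PANC1 and -0.36 ± 0.09 in ES2, with limma adjusted p of 0.000174, 0.023, 0.00765 and 0.0288. The size differed between lines (limma F test over 24 libraries, adjusted p = 0.0218, range over alternatives 0.00106 to 0.0621). With a replicate block this F test did not pass the threshold (adjusted p = 0.0621). Without A549 siC replicate 1, 2 or 3 the call in A549 was lost, at log2 fold changes of -0.82, -0.75 and -0.73. In ES2 it was lost without siC replicate 2 or 3 (-0.31 and -0.34) or siI1 replicate 2 or 3 (-0.36 and -0.30), and under both rescalings (-0.29 and -0.22). A replicate block removed the call in both lines (limma adjusted p of 0.0625 in A549 and 0.0859 in ES2). Over all alternatives the adjusted p ran from 2.81e-06 to 0.08 in A549 and from 0.00221 to 0.108 in ES2, and stayed under 0.05 in MV3 and PANC1.

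E2F2 (ENSG00000007968, chromosome 1, 23506438 to 23531233), the least abundant activator, was also lower in all 4 lines. Its A549 libraries had 3.41, 2.53 and 3.3 FPKM in siC and 1.20, 1.29 and 0.983 in siI1, resting on 19 to 79 reads. In ES2 they had 3.0, 3.41 and 2.59 FPKM in siC and 1.95, 1.86 and 1.95 in siI1. In MV3 they had 3.86, 3.92 and 3.53 FPKM in siC and 1.72, 2.31 and 2.05 in siI1. No siI1 library reached any siC library of its line, and in A549 the siI1 mean was 37.5% of siC. In PANC1 the values were 3.0, 2.93 and 2.53 FPKM in siC and 1.18, 1.61 and 1.07 in siI1, also apart. The log2 fold changes were -1.11 ± 0.18 (SE), -0.53 ± 0.12, -0.76 ± 0.10 and -0.90 ± 0.15 in A549, ES2, MV3 and PANC1, with limma adjusted p of 0.0115, 0.0218, 0.00208 and 0.00833. A difference between lines did not pass the threshold (adjusted p = 0.072, range over alternatives 0.000259 to 0.157), but did without A549 siC replicate 2 (0.0258), ES2 siC replicate 2 (0.0495) or PANC1 siI1 replicate 2 (0.0331), and under the same sum of FPKM (0.000259) or of protein-coding FPKM (0.0139). The A549 call was lost without siC replicate 1 or 3 (log2 fold changes -1.04 and -1.06), and the ES2 call without any 1 of the libraries other than siC replicate 3 (-0.54 to -0.44) or with no filter on low values (-0.53). A replicate block removed both calls (limma adjusted p of 0.0604 in A549 and 0.0709 in ES2). Over alternatives the adjusted p was 1.11e-06 to 0.0604 in A549 and 0.00121 to 0.0709 in ES2. E2F1 and E2F2 were the members called lower in all 4 lines, as were 2.51% of the 12816 genes tested in each line.

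E2F3 (ENSG00000112242, chromosome 6, 20401879 to 20493714) was lower in ES2, MV3 and PANC1. Its siC libraries had 14.0 FPKM in replicate 1 and 12.1 or just less in the others in ES2, against 10.4, 10.1 and 10.1 in siI1. In MV3 the values were 12.9, 13.6 and 13.4 FPKM in siC and 9.53, 9.92 and 9.81 in siI1. In PANC1 they were 9.44, 9.06 and 9.73 FPKM in siC and 5.72, 6.50 and 7.08 in siI1. None of these groups overlapped, and the siI1 means were 80.2%, 73.3% and 68.4% of siC. In A549 the siC libraries had 5.32, 7.54 and 4.99 FPKM and the siI1 libraries 7.22, 6.90 and 7.10, so that they overlapped through siC replicate 2. The log2 fold change was 0.25 ± 0.15 (SE) in A549 (limma adjusted p = 0.354), and -0.30, -0.43 and -0.52 in ES2, MV3 and PANC1 (adjusted p of 0.0271, 0.000457 and 0.00868). The changes differed between lines (adjusted p = 0.000921, range over alternatives 2.74e-06 to 0.00634). Without siC replicate 2, E2F3 was called higher in A549 (0.42, adjusted p = 0.0472, with 0.0472 to 0.635 over all alternatives). In ES2 the call was lost without siI1 replicate 1, 2 or 3 (-0.31, -0.30 and -0.29), and under both rescalings (-0.23 and -0.16), with adjusted p of 0.00361 to 0.181 over alternatives. A replicate block removed the ES2 call as well (limma adjusted p = 0.0579).

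Among the members that act as repressors, E2F4 (ENSG00000205250, chromosome 16, 67192155 to 67198918), the main partner of the pocket proteins in resting cells, was lower in A549, ES2 and MV3. In A549 it had 17.9, 15.9 and 18.4 FPKM in siC and 14.7, 13.3 and 12.6 in siI1. In ES2 it had 22.8, 24.4 and 20.7 FPKM in siC and 15.4, 14.2 and 16.3 in siI1. In MV3 it had 28.1, 27.7 and 27.5 FPKM in siC and 19.5, 19.8 and 19.9 in siI1. These groups did not overlap, and replicates lay closest in MV3. In PANC1 the values were 10.8, 13.4 and 11.2 FPKM in siC and 11.3, 10.5 and 10.1 in siI1, which overlapped. The log2 fold changes were -0.55 ± 0.08 (SE) in ES2, -0.48 ± 0.03 in MV3, -0.35 ± 0.09 in A549 and -0.14 ± 0.09 in PANC1, with limma adjusted p of 0.0046, 0.000154, 0.0467 and 0.346. The difference between lines passed the threshold (adjusted p = 0.0211), but not without PANC1 siC replicate 1 or 3 or siI1 replicate 1 (adjusted p of 0.064, 0.0586 and 0.0605), with 0.00281 to 0.241 over all alternatives. The limma F test also missed it under the same sum of protein-coding FPKM (adjusted p = 0.241) and with a replicate block (0.0777). The A549 call was lost without siC replicate 1 or 3 (-0.33 and -0.31) or siI1 replicate 1, 2 or 3 (-0.41, -0.34 and -0.30), under both rescalings (-0.38 and -0.33) and with no filter on low values (-0.35). A replicate block removed the A549 call as well (limma adjusted p = 0.105). Its adjusted p over alternatives was 0.00687 to 0.14.

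E2F5 and E2F6 were lower in MV3 and passed the threshold in no other line. E2F5 (ENSG00000133740, chromosome 8, 85177154 to 85217158) had 5.50, 5.10 and 5.48 FPKM in MV3 siC and 3.95, 3.55 and 3.81 in siI1, a log2 fold change of -0.46 ± 0.06 (SE) with a limma adjusted p of 0.00191. Its log2 fold change was 0.24 in A549 (95% confidence interval -0.02 to 0.51), -0.05 in ES2 (-0.22 to 0.12) and 0.07 in PANC1 (-0.19 to 0.33). These groups overlapped, and the changes differed between lines (adjusted p = 0.000784, range over alternatives 0.000101 to 0.00566). E2F6 (ENSG00000169016, chromosome 2, 11444375 to 11466177) had 8.07, 7.53 and 8.54 FPKM in MV3 siC and 6.27, 6.32 and 6.89 in siI1, a log2 fold change of -0.29 ± 0.06 (SE) with a limma adjusted p of 0.013. Elsewhere its log2 fold change was 0.10 in A549 (95% confidence interval -0.19 to 0.38), -0.02 in ES2 (-0.22 to 0.19) and -0.04 in PANC1 (-0.28 to 0.20), and its groups overlapped. A difference of E2F6 between lines did not pass the threshold (adjusted p = 0.112, range over alternatives 0.00228 to 0.242), but did under the same sum of FPKM (0.00228) and without A549 siC replicate 3 (0.024). Its MV3 change did not pass the threshold under the same sum of protein-coding FPKM (-0.16, adjusted p = 0.111, with 0.000652 to 0.111 over alternatives). The sign of E2F5 turned to positive in ES2 under both rescalings (0.02 and 0.08), as did that of E2F6 (0.05 and 0.12), and E2F5 turned negative in PANC1 under the same sum of FPKM (-0.59).

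Of the atypical repressors, E2F7 (ENSG00000165891, chromosome 12, 77021248 to 77065569) was lower in ES2, MV3 and PANC1. In ES2, where it was most abundant, it had 17.0, 16.3 and 15.4 FPKM in siC and 12.1, 12.1 and 11.8 in siI1. In MV3 it had 11.0, 10.9 and 12.2 FPKM in siC and 8.83, 8.09 and 7.92 in siI1. In PANC1 it had 4.30, 3.78 and 3.72 FPKM in siC and 2.25, 2.53 and 2.42 in siI1. The groups did not overlap in these lines, and the siI1 means were 73.9%, 72.8% and 61.1% of siC. In A549 it had 4.16, 4.86 and 4.31 FPKM in siC and 3.16, 2.97 and 4.16 in siI1, where siI1 replicate 3 reached just above siC replicate 1. The log2 fold changes were -0.42 ± 0.05 (SE) in ES2, -0.43 ± 0.06 in MV3, -0.61 ± 0.09 in PANC1 and -0.34 ± 0.15 in A549, with limma adjusted p of 0.00292, 0.00268, 0.00648 and 0.197. No difference between lines passed the threshold (adjusted p = 0.314, range over alternatives 0.000352 to 0.576) other than under the same sum of FPKM (0.000352), and by limma voom the A549 change passed it as well (-0.40, adjusted p = 0.0478, with 0.0478 to 0.391 over alternatives).

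E2F8 (ENSG00000129173, chromosome 11, 19224063 to 19241620) passed the threshold in MV3 only. Its siI1 libraries lay below the siC range in each line. The share of all genes with such gaps was not counted, so the gaps are a description. In A549 it had 1.6, 1.7 and 1.54 FPKM in siC and 1.05, 0.903 and 0.954 in siI1, but these values rested on 14 to 28 reads. In ES2 it had 3.50, 3.90 and 3.88 FPKM in siC and 2.89, 3.38 and 2.97 in siI1. In MV3 it had 4.77, 4.24 and 4.42 FPKM in siC and 3.55, 3.60 and 2.99 in siI1. The gap in ES2 was narrow, between the lowest siC and the highest siI1 library. In PANC1 the values were 2.89, 2.67 and 2.73 FPKM in siC and 2.33, 2.25 and 2.47 in siI1. The log2 fold changes were -0.53 ± 0.18 (SE) in A549, -0.36 ± 0.08 in MV3, -0.25 ± 0.09 in ES2 and -0.19 ± 0.09 in PANC1, with limma adjusted p of 0.12, 0.0173, 0.105 and 0.167. Since 0.5 FPKM was added before the logarithm, the A549 value understates a siI1 mean at 60.1% of siC. The MV3 call was lost without siC replicate 1 (-0.32) and under the same sum of protein-coding FPKM (-0.24), with adjusted p from 0.000711 to 0.0757 over alternatives. A difference between lines did not pass the threshold (adjusted p = 0.094, range over alternatives 0.0309 to 0.18), but did under the same sum of FPKM (0.0309) and with 0.1 FPKM added before the logarithm (0.033).

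Of the pocket proteins, RBL1 (ENSG00000080839, chromosome 20, 36996349 to 37095997), itself a gene of the E2F program, split the lines. In PANC1 it had 6.56, 5.70 and 6.32 FPKM in siC and 2.95, 2.82 and 3.04 in siI1. In MV3 it had 17.0, 18.5 and 18.7 FPKM in siC and 11.2, 10.7 and 11.0 in siI1. These groups lay far apart, and the siI1 means were 47.4% and 60.7% of siC. In ES2 it had 15.5, 13.3 and 15.3 FPKM in siC and 13.8, 15.3 and 15.0 in siI1. In A549 it had 14.0, 14.3 and 11.0 FPKM in siC and 10.0, 10.1 and 11.3 in siI1, and the groups overlapped in both lines. The log2 fold changes were -0.96 ± 0.08 (SE) in PANC1, -0.69 ± 0.05 in MV3, -0.31 ± 0.12 in A549 and 0.00 (95% confidence interval -0.18 to 0.19) in ES2, with limma adjusted p of 0.00132, 0.000227, 0.149 and 0.978. The change differed between lines (adjusted p = 1.78e-05, range over alternatives 2.66e-06 to 0.00203). Without A549 siC replicate 3 the A549 change passed the threshold (-0.42, adjusted p = 0.0444, with 0.0138 to 0.332 over alternatives), and by limma voom it did so too (-0.32).

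RB1 (ENSG00000139687, chromosome 13, 48303744 to 48599436), the retinoblastoma protein gene, passed the threshold in MV3 only, and its values moved both ways across lines. In MV3 it had 12.5, 11.7 and 12.6 FPKM in siC and 10.6, 10.6 and 10.5 in siI1. In PANC1 it had 9.32, 10.3 and 9.07 FPKM in siC and 7.82, 7.74 and 8.53 in siI1. Neither line showed overlap, but only the MV3 change passed the threshold, at a log2 fold change of -0.21 ± 0.04 (SE) and a limma adjusted p of 0.00783, whereas PANC1 had -0.24 ± 0.08 (adjusted p = 0.0638). In ES2 it had 7.72, 6.30 and 6.72 FPKM in siC and 7.70, 9.15 and 8.73 in siI1, and in A549 it had 13.6, 14.4 and 13.3 in siC and 15.8, 14.6 and 15.1 in siI1. The siI1 means were above siC in both lines, with overlap in ES2, at log2 fold changes of 0.29 ± 0.10 (limma adjusted p = 0.0892) and 0.13 ± 0.06 (adjusted p = 0.228). The changes differed between lines (adjusted p = 0.000531, range over alternatives 1.89e-05 to 0.0178). The MV3 call was lost under the same sum of protein-coding FPKM (-0.08, adjusted p = 0.263) and of all FPKM (-0.22, adjusted p = 0.055), with 0.000943 to 0.263 over alternatives. The former in turn called RB1 higher in ES2 (0.42, adjusted p = 0.0383, with 0.0123 to 0.224) and lower in PANC1 (-0.28, adjusted p = 0.0288, with 0.00277 to 0.163), and limma voom made both of these calls as well.

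Between the 4 lines, the response of 6 of the 10 members differed (E2F1, E2F3, E2F4, E2F5, RB1 and RBL1), beside 45.0% of the 12816 genes tested in all lines. The members thus stood close to the background in this respect. PANC1 was harvested later than the other lines, so that line and harvest time cannot be told apart there.

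The summed FPKM of E2F1 to E2F8 was lower after knockdown in every line. In MV3 it went from 106.9 ± 2.16 FPKM to 71.1 ± 0.47 and in ES2 from 90.6 ± 2.77 to 69.9 ± 0.788 (SD, n = 3). In PANC1 it went from 69.3 ± 3.62 FPKM to 54.1 ± 0.616 and in A549 from 61.1 ± 2.22 to 50.9 ± 2.82. The libraries of siC and siI1 did not overlap. The activators E2F1 to E2F3 made up 37.3% ± 1.46 of this pool in A549 siC and 31.8% ± 1.51 in siI1. In MV3 their share was 46.7% ± 1.31 in siC and 41.5% ± 0.824 in siI1, and in PANC1 57.0% ± 0.617 and 50.6% ± 0.689. The activators' share was lower in all siI1 libraries of these lines, whereas in ES2 it was 39.8% ± 0.506 and 39.9% ± 1.72 and overlapped. E2F4 to E2F6 together took 33.3% ± 0.563 of the pool in PANC1 siC and 40.6% ± 0.995 in siI1, and 52.7% ± 2.1 and 59.5% ± 2.07 in A549. The atypical members E2F7 and E2F8 made up 22.1% of the pool in ES2 siC and 9.69% to 14.8% in the other lines. Shares within a library do not depend on its scaling; they are given as a description.

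**Figure D3:**
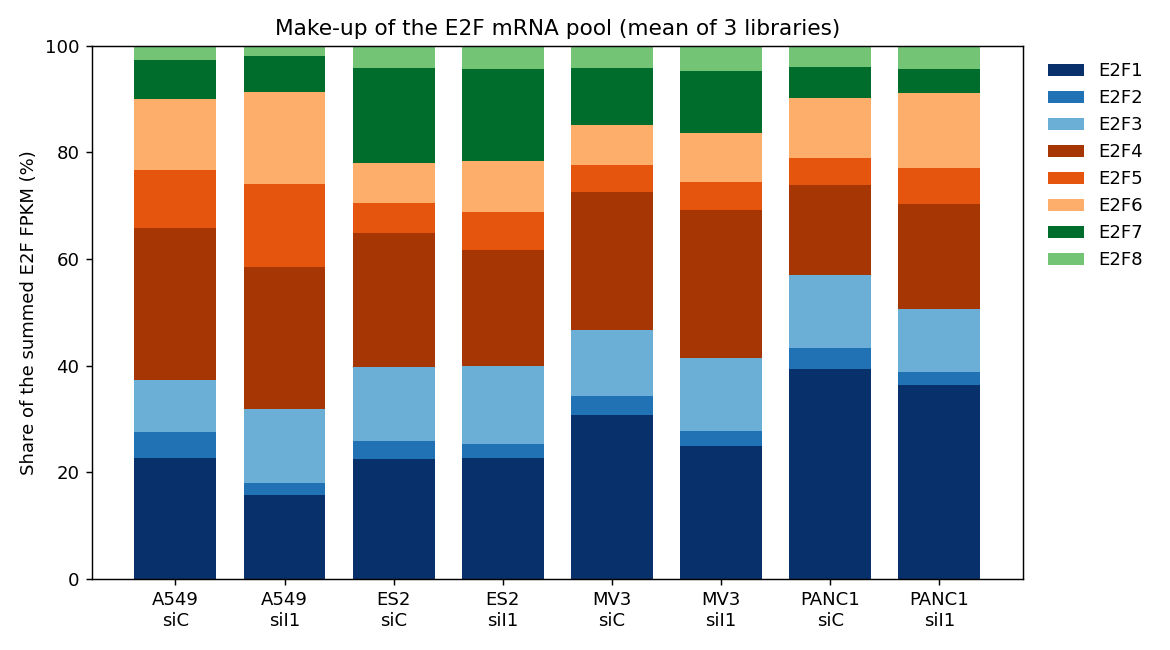
Share of each E2F gene in the summed FPKM of E2F1 to E2F8 (percent, stacked to 100), as the mean of 3 libraries in each of the 8 groups. The blue activators E2F1 to E2F3 shrink from 57.0% to 50.6% in PANC1 and from 46.7% to 41.5% in MV3, and keep 39.8% and 39.9% in ES2.

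The genes around the family were counted from lists by role. Of the dimer partners and the remaining pocket protein, 3 of 4 genes were tested, and TFDP3 was below the filter on low values. TFDP1, the main partner of E2F1 to E2F6, was higher in A549 (log2 fold change 0.28, limma adjusted p = 0.0265) and PANC1 (0.24, adjusted p = 0.026), whereas in MV3 it was lower (-0.13, adjusted p = 0.042). TFDP2 was higher in MV3 (0.34, adjusted p = 0.00322). RBL2 was higher in ES2 (0.42, adjusted p = 0.00583), where its mean went from 12.4 ± 0.413 to 16.8 ± 1.17 FPKM (SD, n = 3), and lower in PANC1 (-0.33, adjusted p = 0.0484), and its change differed between lines (adjusted p = 4.66e-05). Leaving out any 1 library left 0 lower in PANC1, and 0 to 1 higher in A549 and PANC1. Under the same sum of FPKM, 3 were lower and 0 higher in PANC1, TFDP1 among the lower, and 0 were higher in A549. Of all 16238 genes then tested in PANC1, 8870 were lower and 96 higher. Under both rescalings 0 were lower in MV3.

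Upstream of the pocket proteins stand the G1 cyclins, their kinases and inhibitors. Of these, 5 of 11 tested were lower and 0 higher in A549 (2 higher at an unadjusted p under 0.05, 2 by limma voom), 3 of 13 lower and 1 higher in ES2, 8 of 14 lower and 2 higher in MV3, and 4 of 11 lower and 3 higher in PANC1 (2 to 3 each when any 1 library was left out). Over all genes tested, 7.83% were lower and 5.93% higher in A549, and 13.0% and 10.5% in ES2. In MV3 the shares were 19.5% and 16.3%, and in PANC1 13.4% and 11.3%. Under the same sum of protein-coding FPKM, 3 of the list were lower and 6 higher in ES2. Under the same sum of FPKM, 9 of the list were lower and 0 higher in PANC1. Of all 16238 genes tested there, 8870 were lower and 96 higher. CCNE1, the cyclin that drives S phase entry and an E2F target, was lower in A549 (log2 fold change -0.81, limma adjusted p = 0.00297), ES2 (-1.04, adjusted p = 0.00297) and MV3 (-0.67, adjusted p = 0.00236). In PANC1 its change was -0.15 (adjusted p = 0.162), and the lines differed (adjusted p = 0.00035). CDK6, a kinase of the pocket proteins, was lower in PANC1 (-1.07, adjusted p = 0.00061), A549 (-0.64, adjusted p = 0.0046) and MV3 (-0.25, adjusted p = 0.0166) but had -0.02 in ES2. CDKN1A (p21), an inhibitor of these kinases, was lower in A549 (-0.43), ES2 (-0.94) and MV3 (-0.57), with adjusted p of at most 0.00582, and its change in PANC1 was -0.35 (adjusted p = 0.101). CDK4, named after its values were seen, was the only gene of this list lower in all 4 lines, by log2 fold changes of -0.47 to -0.39.

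The MuvB core with B-MYB and FOXM1 carries the program on from S phase to mitosis. Of its 7 genes, 6 fell in MV3, 5 in PANC1 and 2 each in ES2 and A549, and 0 were higher in any line, also at an unadjusted p under 0.05 and by limma voom. Over all genes tested, 19.5% were lower in MV3, 13.4% in PANC1, 13.0% in ES2 and 7.83% in A549. The shares of higher genes were 16.3%, 11.3%, 10.5% and 5.93% in the same order. Leaving out any 1 library gave 0 to 1 lower in ES2, 1 to 2 in A549 and 2 to 4 in PANC1, where siI1 replicate 2 gave the lowest count. Under both rescalings 0 of the 7 genes were lower in ES2, so that FOXM1 and LIN52 lost their ES2 calls. FOXM1, the mitotic activator, was lower in all 4 lines by nearly equal amounts, with log2 fold changes of -0.59 in both A549 and PANC1, -0.58 in ES2 and -0.53 in MV3 (limma adjusted p of 0.0425, 0.00604, 0.0211 and 0.000677), and no difference between lines passed the threshold (adjusted p = 0.983). LIN52 had log2 fold changes of -0.64, -0.74, -0.28 and -0.34 in the same order and passed the threshold in ES2, MV3 and PANC1. RBBP4 was lower in A549 (-0.72), MV3 (-0.16) and PANC1 (-0.51) and had -0.04 in ES2.

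Of the 10 genes of the Polycomb complex that E2F6 joins, 1 was lower and 1 higher in A549, 0 and 1 in ES2 (0 and 1 also at an unadjusted p under 0.05, 0 and 2 by limma voom), 3 and 2 in MV3, and 1 and 1 in PANC1. The 5 called in MV3 stand beside 19.5% of all genes lower and 16.3% higher in that line. In PANC1, 6 were lower and 2 higher at an unadjusted p under 0.05, 5 and 1 by limma voom, and 7 and 0 under the same sum of FPKM. Over all genes in PANC1, 2760 of 15846 were lower and 2256 higher by limma voom. Under the same sum of FPKM, 8870 of 16238 were lower and 96 higher. The share of all genes at an unadjusted p under 0.05 was not counted. Leaving out any 1 library gave 2 to 4 lower and 0 to 1 higher in MV3, and 0 lower and 0 to 1 higher in PANC1. L3MBTL2 was lower in A549 (-0.59, limma adjusted p = 0.0285) and MV3 (-0.29, adjusted p = 0.00749), and MAX in MV3 (-0.40, adjusted p = 0.000513). RING1 was higher in MV3 (0.18, adjusted p = 0.0475) and PANC1 (0.43, adjusted p = 0.0227). The 4 meiosis genes that E2F6 keeps silent, STAG3, SMC1B, SLC25A31 and MAEL, were below the filter in every line.

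The 34 listed E2F target genes, which overlap the lists above in CCNE1, CCNE2 and MYBL2, were nearly all lower in MV3 and mostly lower in PANC1. In MV3, 33 of 34 were lower and 0 higher, with a median log2 fold change of -0.54, and in PANC1 27 were lower and 1 higher, with a median of -0.50. In ES2, 11 were lower and 2 higher (median -0.14), and in A549 9 were lower and 0 higher (median -0.10). Over all genes tested, 19.5% were lower and 16.3% higher in MV3, and 13.4% and 11.3% in PANC1. In ES2 the shares were 13.0% and 10.5%, and in A549 7.83% and 5.93%. At an unadjusted p under 0.05, 2 target genes were higher in A549 and 0 in MV3, and limma voom called 1 and 0 higher. Leaving out any 1 library gave 33 lower genes in MV3, 20 to 23 in PANC1, 7 (without siI1 replicate 3) to 10 in ES2 and 4 to 5 in A549. Under the same sum of protein-coding FPKM, 6 were lower and 8 higher in ES2, beside 1295 lower and 2924 higher of 16936 genes. For 30 of the 34 genes the change differed between lines, against 45.0% of all genes tested. E2F1 fell in all 4 lines, whereas RBL1 and most of the target list fell in MV3 and PANC1, a relation over 4 lines that was not tested.

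**Figure D4:**
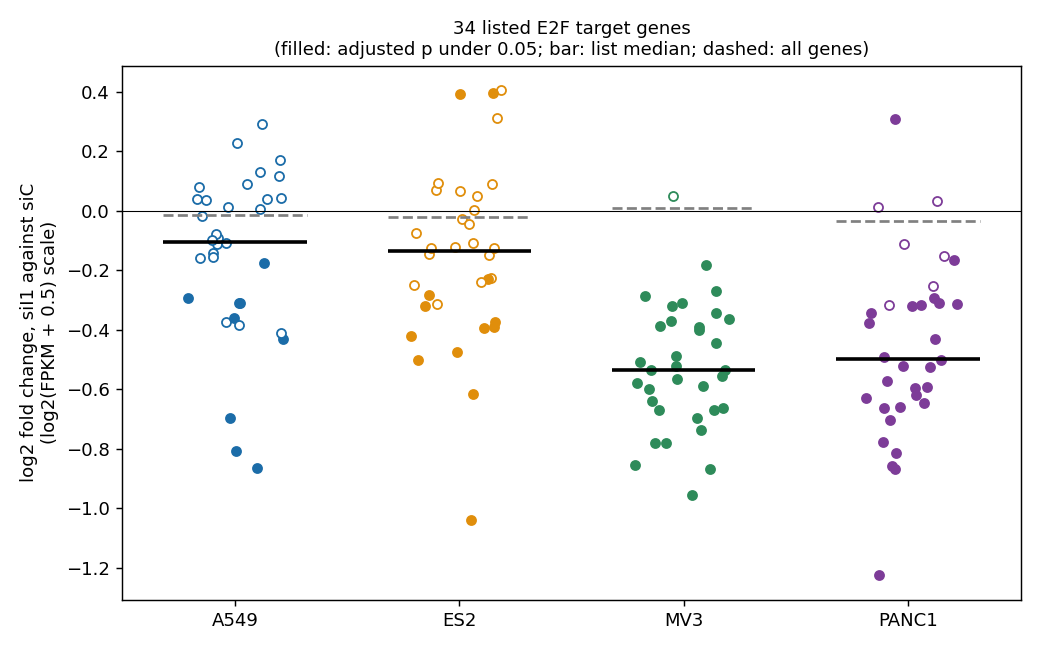
log2 fold change of the 34 listed E2F target genes, siI1 against siC, in each line on the log2(FPKM + 0.5) scale; points are genes, filled at an adjusted p under 0.05, thick bars are list medians and dashed bars medians of all genes tested. In MV3 33 points are filled below 0 around a median of -0.54, while in A549 9 are filled around -0.10.

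UHRF1, which guides maintenance of DNA methylation, was lower in all lines, with log2 fold changes of -1.23 in PANC1, -0.87 in A549, -0.85 in MV3 and -0.47 in ES2 and limma adjusted p of at most 0.00277. ORC1, a subunit of the origin recognition complex, was lower in A549 (-0.70), MV3 (-0.78) and PANC1 (-0.66), with -0.23 in ES2 (adjusted p = 0.0782). MCM7, TYMS and UHRF1 were the target genes called lower in all 4 lines, MCM7 in A549 at an adjusted p of 0.0499. Exceptions to the direction, named after their values were seen, were MCM4 and MCM6, of the replicative helicase, which were higher in ES2 (0.40 and 0.39, limma adjusted p of 0.0036 and 0.02). RRM2, of the ribonucleotide reductase, was higher in PANC1 (0.31, adjusted p = 0.0343), whereas in ES2 (-0.50) and MV3 (-0.78) it was lower. The PANC1 call of RRM2 was lost with no filter on low values, under the same sum of FPKM and with a replicate block. Leaving out any 1 library gave 0 to 1 higher target genes in PANC1. Of the 28 target genes with RefSeq promoter windows, 10 (35.7%) carried an E2F word in the 250 bases before a start; by window it was 11 of 43 (25.6%), beside 2.79% of all windows.

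Across the 24 libraries, after subtraction of each line's mean, members rose and fell together to different degrees. E2F1 and E2F8 had the highest Pearson r among pairs of members (0.89), followed by E2F1 and E2F2 (0.85), and E2F4 and RB1 the lowest (-0.16). Among 9649 protein-coding genes tested in all lines, the genes most like E2F1 were RUBCN, BLM and EXOSC6 (r of 0.93 each). The genes most like E2F2 were TM9SF4 (0.97), CENPO (0.96) and ZMAT2 (0.96). IGF2BP1 itself had r of 0.93 with E2F7, 0.92 with E2F2, 0.86 with E2F1, 0.83 each with E2F4 and E2F8, and 0.80 with RBL1. Its r was 0.63 with E2F3, 0.24 with E2F6, 0.16 with E2F5 and 0.07 with RB1. These values share the knockdown contrast, the libraries and their scaling, and are given as a description over 24 libraries.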

How the data were processed

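Members and gene lists were chosen with earlier results of these data known. Before deposit, the authors trimmed reads (cutadapt 1.14), mapped them to hg38 (HISAT2 2.1.0), assigned them to Ensembl genes (featureCounts 1.5.3) and fitted each line with edgeR 3.30.3 and TMM. Their deposited tables hold FPKM values per library, a unit not named there and worked out from the values: 100% were whole reads within 0.01 read. The deposited log2 fold changes, p-values and FDR of the authors' own comparison were not used.

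Groups and replicate numbers came from the sample titles. Per line, genes averaging 0.5 FPKM or more were tested on log2(FPKM + 0.5) with limma 3.58.1 in R 4.3.3 (intensity trend, two-sided, Benjamini-Hochberg over all genes tested, threshold 0.05). Differences between lines were tested with a limma F test of 3 contrasts over 24 libraries. No set test was run. The fit was tested on simulated data. Alternatives were pseudocounts of 0.1 and 1, no filter or 1 FPKM, both rescalings, limma voom on recovered reads, a replicate block and leaving out each library. Genes named were IGF2BP1, the members, per list the 3 largest absolute mean log2 fold changes, and the 3 genes most correlated with each member called in all lines. Some genes of the lists are not reported here by name. Gene coordinates are from GENCODE 44 (hg38). Python 3.11.15, numpy 2.4.6, pandas 2.3.3 and matplotlib 3.10.9 were used.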

Additional observations from a re-analysis of the deposited data

Results flagged for a closer look

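For 6 members the change after knockdown differed between the 4 lines in the limma F test over 24 libraries, which is why they are listed here. RBL1 had the smallest adjusted p (1.78e-05), with log2 fold changes from -0.96 in PANC1 to 0.00 in ES2. RB1 followed (adjusted p = 0.000531), from -0.24 in PANC1 to 0.29 in ES2. E2F5 ranged from -0.46 in MV3 to 0.24 in A549 (adjusted p = 0.000784), and E2F3 from -0.52 in PANC1 to 0.25 in A549 (adjusted p = 0.000921). E2F4 ranged from -0.55 in ES2 to -0.14 in PANC1 (adjusted p = 0.0211), and E2F1 from -0.87 in MV3 to -0.36 in ES2 (adjusted p = 0.0218). PANC1 was harvested at 96 h and the other lines at 72 h, so that the line and the time cannot be told apart.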

How the results depend on the processing

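E2F1 and E2F2 kept a negative change in every line and alternative run, and were called in MV3 and PANC1 in each. With limma voom on recovered reads, 5 members were lower in A549 and 1 (RB1) higher in ES2. Over all genes it called 2339 of 18411 lower in A549 and 2414 of 16920 higher in ES2. Rescaling to the same sum of FPKM gave 3 lower members in ES2, 10 in PANC1, and 10 whose change differed between lines. Over all genes, that setting called 1419 of 16940 lower in ES2 and 8870 of 16238 in PANC1, and 9007 of 12946 differed between lines. The same sum of protein-coding FPKM gave 3 lower and 1 higher in ES2, beside 1295 lower and 2924 higher of 16936 genes. Signs reversed for E2F5 and E2F6 in ES2 under these rescalings (0.018 and 0.0495, then 0.084 and 0.12) and for E2F5 in PANC1 under the first (-0.59); the cause was not tested beyond the shift of all genes given above. The sources used here do not say whether replicate numbers pair the samples. Deviations of same-numbered siC and siI1 libraries correlated at -0.06 to 0.07, as did those of differently numbered ones. These correlations cannot decide whether the samples were paired. With a replicate block, 0 members were lower in A549 and 2 in ES2. Neither E2F1 nor E2F2 was then called in these lines. Over all genes, 622 of 18411 were lower in A549 and 1443 of 16920 in ES2. Leaving out 1 library gave 0 to 2 lower and 0 to 1 higher members in A549, 2 to 4 lower in ES2, 9 to 10 in MV3, 5 in PANC1 and 5 to 7 differing between lines. Signs then turned for RBL1 (-0.0655 to 0.0461) and E2F6 (-0.0756 to 0.0472) in ES2, and for E2F5 (-0.00264 to 0.14) and E2F6 (-0.10 to 0.0555) in PANC1. Depth limits A549 most, where E2F8 rested on 14 to 28 reads.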
